A study of Mus musculus with 10 samples.

Results

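Transcription factors that direct the formation of blood, heart, muscle, nervous system, gut, kidney and other tissues were examined in fibroblasts, a cell type that most of them do not direct. The group consisted of 47 named genes out of 21938 protein-coding mouse genes on chromosomes 1 to 19, X and Y. It was listed by name and included 4 regulators of the early embryo, 10 of blood and immune cells, 8 of the heart and neighbouring mesoderm, 6 of skeletal muscle, 9 of the nervous system and pigment cells, 6 of gut, lung and pancreas, and 4 of kidney and skeleton. The rule that lists them uses no measured value, but these genes and the comparison lists were chosen with earlier results of these data known.

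ATAC-seq uses the Tn5 transposase to cut open chromatin, and regions in which the fragments pile up are called accessible sites. The libraries came from immortalized mouse embryo fibroblasts (iMEF) in which exon 4 of the endogenous Ash2l alleles had been deleted by an inducible Cre recombinase, and which lived on a lentivirally delivered fusion of FKBP12 (F36V), 2 HA tags and human ASH2L. The study names these cells as the clone NG3, so that they stand for 1 clone, and the control cells carried the same deletion and the same fusion protein. The compound dTAG-13 joins the FKBP12 part to an E3 ubiquitin ligase and thereby removes ASH2L, which the KMT2 enzymes need to place methyl groups on lysine 4 of histone H3. The 10 libraries comprised 5 groups with 2 replicates each, namely cells without dTAG-13, which according to the methods received ethanol, and cells that were given dTAG-13 and collected 30 min, 4 h, 8 h or 24 h later.

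The values are the positions of 153924 sites found over all 10 libraries together, 153682 of them on the chromosomes named above. The list holds no signal per library. A site therefore states that chromatin was called accessible in at least some of the pooled libraries, and neither an effect of dTAG-13 nor a replicate error can be given for any gene. For the same reason no test was run. Counts of the lineage regulators are set beside the same counts over all protein-coding genes. How deeply the libraries were sequenced is unknown here.

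Lineage regulators are mostly proteins that bind DNA and switch on the genes of 1 cell type. Many of them start in long CpG islands, stretches in which the dinucleotide CpG has escaped its usual depletion. CpG islands tend to be free of DNA methylation and nucleosome-poor in many tissues, also where the gene is silent, and at silent developmental regulators they are known as landing sites of Polycomb complexes. Accessibility of such a promoter is thus not a measure of expression.

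The sequences around the start sites show how far the promoters differed. The promoters printed here run from 250 bases before to 50 bases after the RefSeq start site (GRCm38.p6, strand of the gene), with each CpG in capitals. Atoh1 (64728875 to 64729174 on chromosome 6, plus strand), a neuronal regulator, and Cebpa (35119043 to 35119342 on chromosome 7, plus strand), a regulator of myeloid cells and fat, are shown because a wide accessible site covered their start. Pdx1 (147269847 to 147270146 on chromosome 5, plus strand) and Neurog3 (62132840 to 62133139 on chromosome 10, plus strand), both required for the endocrine pancreas, are shown because their start regions were also CpG-rich but held no site. Nanog (122707239 to 122707538 on chromosome 6, plus strand), a pluripotency factor, and Myog (134289754 to 134290053 on chromosome 1, plus strand), which drives the fusion of muscle precursors, stand for starts with fewer CpG and no site.
Atoh1: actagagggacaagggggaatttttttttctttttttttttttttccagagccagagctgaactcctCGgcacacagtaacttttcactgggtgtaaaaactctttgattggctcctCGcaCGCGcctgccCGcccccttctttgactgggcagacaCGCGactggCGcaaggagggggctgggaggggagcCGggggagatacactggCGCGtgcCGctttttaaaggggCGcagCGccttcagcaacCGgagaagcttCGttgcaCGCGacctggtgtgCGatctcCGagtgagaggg
Cebpa: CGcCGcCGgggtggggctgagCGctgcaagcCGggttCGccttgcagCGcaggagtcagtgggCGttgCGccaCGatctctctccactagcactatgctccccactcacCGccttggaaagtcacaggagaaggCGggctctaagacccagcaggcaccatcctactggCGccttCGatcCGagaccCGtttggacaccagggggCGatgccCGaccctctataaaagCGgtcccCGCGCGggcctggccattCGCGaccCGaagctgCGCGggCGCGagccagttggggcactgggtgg
Pdx1: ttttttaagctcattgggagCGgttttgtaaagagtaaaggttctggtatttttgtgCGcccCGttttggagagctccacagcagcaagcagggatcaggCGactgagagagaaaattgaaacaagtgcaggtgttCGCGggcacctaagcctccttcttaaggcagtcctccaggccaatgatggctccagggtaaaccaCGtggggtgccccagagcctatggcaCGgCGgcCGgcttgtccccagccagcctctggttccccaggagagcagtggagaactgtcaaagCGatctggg
Neurog3: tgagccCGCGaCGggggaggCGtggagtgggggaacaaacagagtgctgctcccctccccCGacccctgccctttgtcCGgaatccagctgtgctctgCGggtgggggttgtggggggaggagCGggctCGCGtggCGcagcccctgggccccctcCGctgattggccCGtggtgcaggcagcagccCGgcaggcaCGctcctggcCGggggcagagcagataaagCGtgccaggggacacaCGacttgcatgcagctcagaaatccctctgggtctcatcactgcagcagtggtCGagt
Nanog: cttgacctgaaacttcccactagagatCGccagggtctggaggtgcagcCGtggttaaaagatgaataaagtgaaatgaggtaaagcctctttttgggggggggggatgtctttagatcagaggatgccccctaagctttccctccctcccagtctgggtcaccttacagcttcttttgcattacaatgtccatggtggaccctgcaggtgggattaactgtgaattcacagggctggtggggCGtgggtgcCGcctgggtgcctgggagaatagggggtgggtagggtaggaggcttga
Myog: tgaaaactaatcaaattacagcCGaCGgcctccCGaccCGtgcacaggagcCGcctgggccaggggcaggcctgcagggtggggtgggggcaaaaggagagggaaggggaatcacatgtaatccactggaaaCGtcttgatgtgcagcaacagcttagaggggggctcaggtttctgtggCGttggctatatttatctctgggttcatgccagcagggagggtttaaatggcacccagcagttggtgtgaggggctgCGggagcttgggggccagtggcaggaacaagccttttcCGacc
These 300 bases held 20 CpG in Atoh1 and 29 in Cebpa, compared to 11 in Pdx1, 19 in Neurog3, 4 in Nanog and 9 in Myog. Neurog3 had nearly as many CpG as Atoh1 and a higher GC content (68.3 against 56.7%), yet only Atoh1 had a promoter site. RefSeq promoter sequences were found for 37 of the 47 genes. The 30 of them with a promoter site had a median of 22 CpG (7 in Pax8 to 52 in Ikzf1), the 7 without one a median of 9 (3 in Myf5 to 19 in Neurog3), and all 20150 coding promoters a median of 14. The ranges overlapped. The sequence TATAAA was present on the strand of the gene in 3 of the 37 (Cebpa, Myf5 and Olig2), and on either strand in 5, while 7.95 and 12.1% of all coding promoters held it.

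A promoter site was defined as a site overlapping the window of 1 kb either side of an annotated start site. It was found for 36 of the 47 lineage regulators (76.6%), compared to 70.8% of all protein-coding genes. This share lay near the background, and its side of the background changed with the definition. When only the outermost 5′ end of each gene was used, 31 of the 47 lineage regulators and 66.2% of the coding genes had a site, and when the start site itself had to lie inside a site these were 28 of 47 (59.6%) and 65.0%. The member closest to the limit on the inside was Myf6, with a site 708 bp from its start, and the closest on the outside was Myog, with a site 1267 bp away.

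The lineages differed in these counts. All 9 regulators of nervous system and pigment cells and all 4 of kidney and skeleton had a promoter site, as did 7 of 8 for the heart and 8 of 10 for blood. In contrast, a promoter site was found for 3 of 6 genes each in skeletal muscle and in gut, lung and pancreas, and for 2 of 4 in the early embryo. These counts use every annotated start. With only the outermost 5′ end of each gene, Pax1 and Pax8 of kidney and skeleton had no promoter site. The same held for Tbx5 of the heart, Nkx2-1 of the lung and Pou5f1 of the early embryo. The groups are small, so that 1 gene more or less changes a share by a wide margin. They also differed in the CpG content of their starts, and counts within 1 CpG class are given below.

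**Figure D1:**
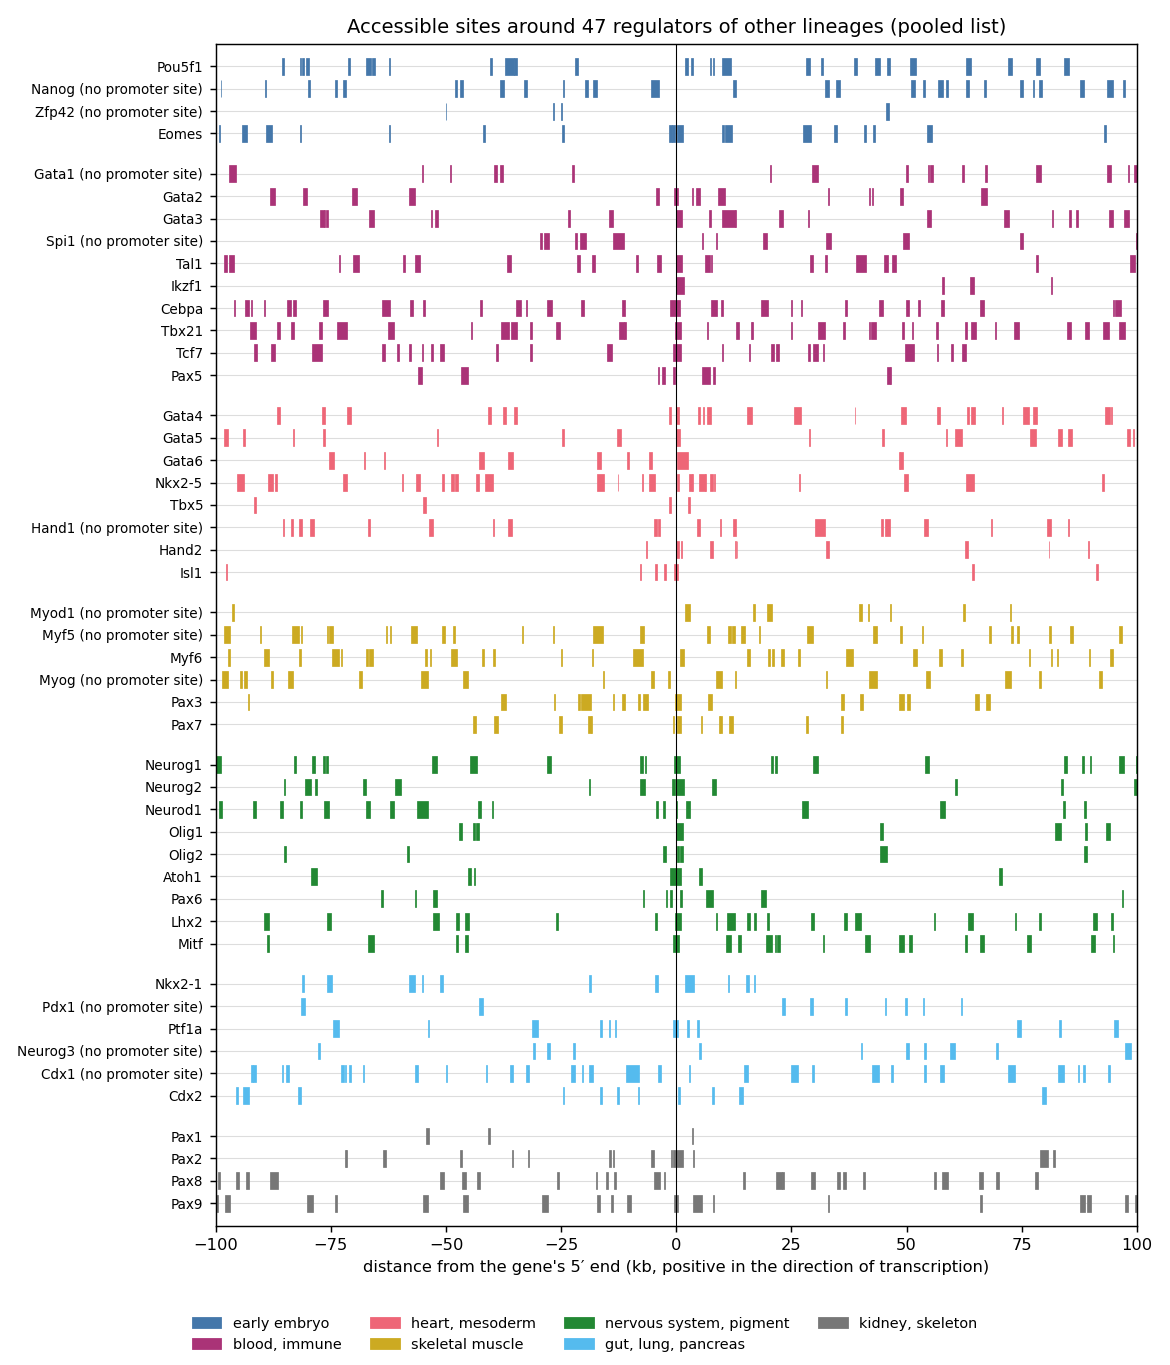
Each row is 1 of the 47 genes, each box an accessible site of the pooled list, and the horizontal axis the distance from the 5′ end of the gene in kb, positive in the direction of transcription; colours mark the lineage. A site sits at or beside the vertical line in most rows of the nervous system, whereas the 11 genes marked as without a promoter site still have sites elsewhere within 100 kb.

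To ask whether the genes with a promoter site were those with CpG-rich starts, each gene was sorted by the sequence within 1 kb of its start sites. CpG-rich genes had a stretch of 500 bp with a GC content of at least 0.55 and an observed to expected CpG ratio of at least 0.6, CpG-poor genes had no stretch with a ratio of 0.4 or more, and the others were called intermediate. Of the 47 lineage regulators, 39 (83.0%) were CpG-rich, 8 intermediate and 0 CpG-poor, whereas 61.6% of all coding genes were CpG-rich. Among the CpG-rich lineage regulators 34 of 39 (87.2%) had a promoter site, beside 95.3% of the CpG-rich coding genes. A gene was CpG-rich if any of its starts was, so the site could lie at another start. With only the outermost 5′ end of each gene, 29 of 36 CpG-rich lineage regulators (80.6%) had a site, beside 94.7% of the CpG-rich coding genes. Among the intermediate lineage regulators 2 of 8 had a promoter site, beside 47.6% of the intermediate coding genes. CpG-poor coding genes, a class without a member here, had a promoter site in 17.7%. The lineages differed in class, with 3 of 6 muscle and 1 of 4 early embryo genes CpG-rich, but all 9 of nervous system and pigment cells. Among CpG-rich genes alone, a site was found for 9 of 9 in nervous system and pigment cells and 4 of 4 in kidney and skeleton. The counts were 8 of 8 for blood, 7 of 8 for the heart, 2 of 3 for muscle, 3 of 6 for gut, lung and pancreas, and 1 of 1 for the early embryo. These counts by lineage also use every annotated start, and Pax1, Pax8, Tbx5 and Nkx2-1 had no site at their outermost 5′ end.

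Thus, CpG-rich genes made up 94.4% of the lineage regulators with a promoter site and 45.5% of those without. Over all coding genes these shares were 82.8 and 9.99%. Had the lineage regulators followed the share of coding genes in each CpG class, 41.0 of the 47 (87.1%) would have had a site, and 36 did. The share of CpG-rich lineage regulators with a site was below that of CpG-rich coding genes under 13 of 14 alternative definitions. The exception was leaving out sites that held a start of another gene, where 76.9% of the CpG-rich lineage regulators and 72.6% of the CpG-rich coding genes had a site. The 14 definitions use the same 47 genes and the same pooled list, so they are not independent. Merging sites at most 100 bp apart and counting site starts from 1 left both shares unchanged.

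**Figure D2:**
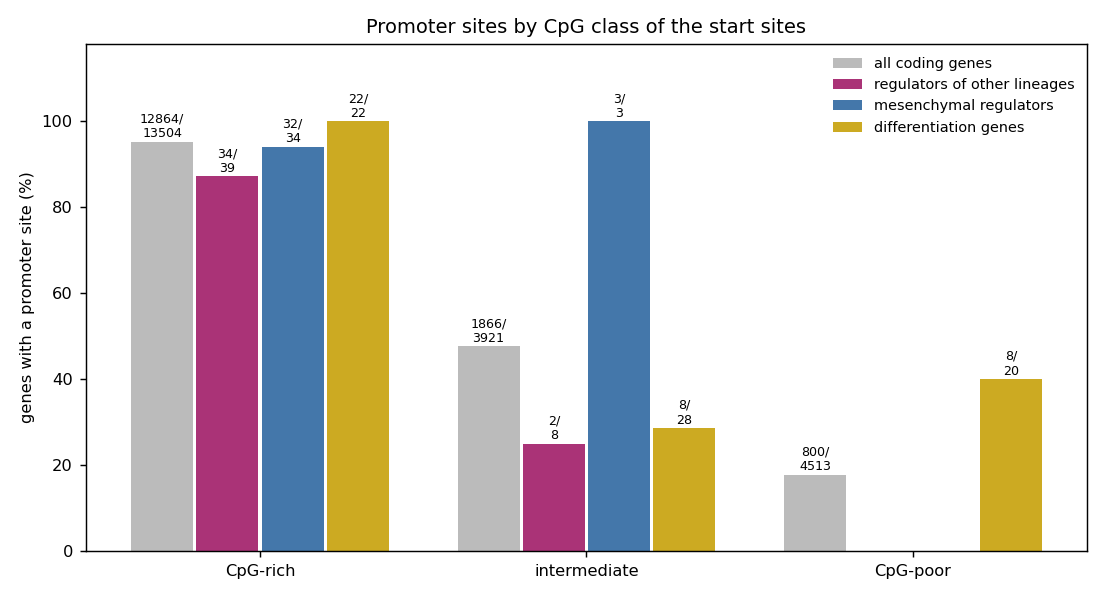
The bars give the percentage of genes with a promoter site, from 0, for each CpG class of the start sites, with the number of genes with a site and the number in the class above each bar. Among CpG-rich genes the bar of the lineage regulators (34 of 39) is the lowest of the 4 and that of the differentiation genes (22 of 22) the highest, and there is no bar where a list has no gene in the class.

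**Figure D3:**
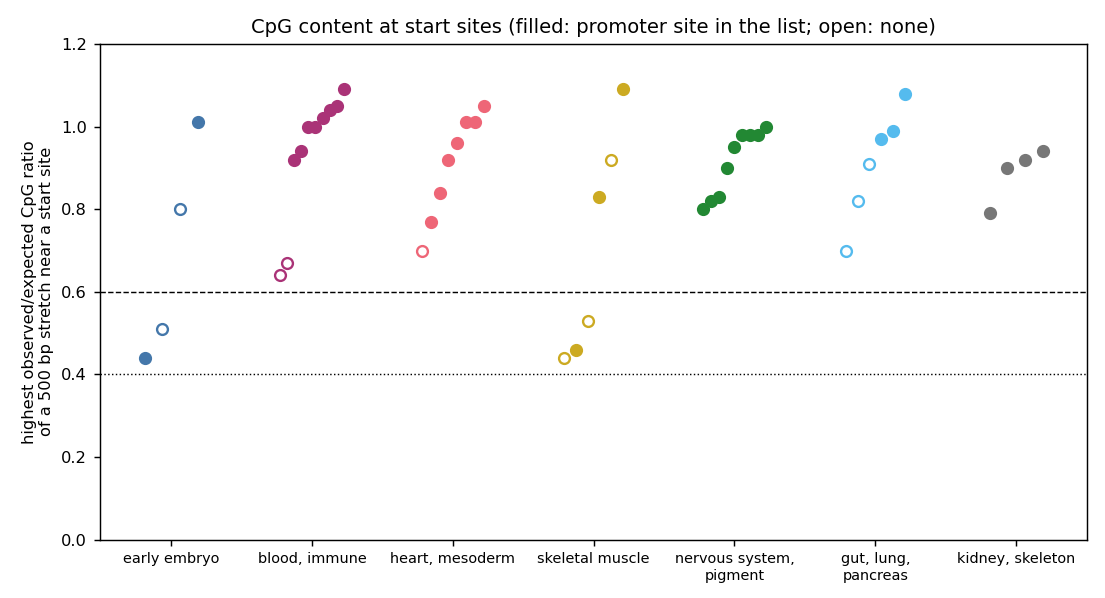
Each circle is 1 of the 47 genes, placed by lineage and by the highest observed to expected CpG ratio of any 500 bp near a start site, whatever its GC content; filled circles have a promoter site. The dashed and dotted lines mark ratios of 0.6 and 0.4, and open circles are found from 0.44 to 0.92, so the ratio alone did not separate genes with and without a site.

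The highest CpG ratio near a start had a median of 0.96 in lineage regulators with a promoter site (0.44 to 1.09) and of 0.70 in those without (0.44 to 0.92). Zfp42, Spi1 and Gata1 reached ratios of 0.80, 0.67 and 0.64 but were intermediate, since no stretch of 500 bp met both the ratio and the GC content.

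The 5 CpG-rich lineage regulators without a promoter site were Hand1, Myod1, Pdx1, Neurog3 and Cdx1. This is 12.8% of the 39, whereas 4.74% (640) of the CpG-rich coding genes lacked a site. For Pdx1, which specifies the pancreas and maintains beta cells, the nearest site was 22894 bp away, downstream of the gene at chr5:147292853-147293572 (mm10, as all coordinates given here). Neurog3, which commits pancreatic cells to an endocrine fate, had its nearest site 4826 bp away, also downstream (chr10:62138001-62138416). Both genes had 0 sites within their own bodies. Cdx1, a regulator of the intestine, had a site of 257 bp in an intron, 2693 bp from its start.

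Hand1, a regulator of heart and trophoblast, had a site of 284 bp at chr11:57836445-57836728, 3627 bp upstream. Myod1, the muscle regulator that can turn fibroblasts into muscle cells when it is supplied to them, had a site of 1094 bp at chr7:46378351-46379444. That site began 1877 bp downstream of the start and reached beyond the 3′ end of the gene, while the CpG-rich start itself held none. How many CpG-rich genes lacked a site depended on the definitions: the number was 3 with a window of 3 kb, where Myod1 and Cdx1 gained a site, and also 3 with a CpG ratio of at least 0.75, which Hand1 and Pdx1 did not reach. It was 8 with islands of 200 bp, 11 when the start had to lie inside a site, and also 11 when sites narrower than the median of 619 bp were left out. Hand1, Pdx1 and Neurog3 had no site with any window from 500 bp to 3 kb.

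The 6 intermediate genes without a promoter site belonged to the early embryo, blood and muscle. Their nearest sites were 3654 bp away for Nanog, 24889 bp for Zfp42 (also known as Rex1, a marker of pluripotent cells) and 4394 bp for Spi1, which encodes the myeloid and B cell factor PU.1. Gata1, the erythroid GATA factor, had its nearest site at 6389 bp and Myf5, which together with Myod1 founds the muscle lineage, at 6648 bp. Myog, named above, completed the group. Over all 11 genes without a promoter site the median distance was 4394 bp and 7 had a site within 5 kb, while the median over all coding genes without a promoter site was 15487 bp.

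A total of 60 promoter sites belonged to the 36 genes. Of these genes 21 had 1 site, 7 had 2, 7 had 3, and Gata2 had 4. The middle of the site lay in an intron for 26 sites, upstream for 14, in a noncoding exon for 11 and in a coding exon for 9. A start site lay inside a site for 28 genes, all of them CpG-rich. This is 71.8% of the 39 CpG-rich lineage regulators, compared to 92.3% of CpG-rich coding genes. For the other 8 genes with a promoter site the site lay beside a start, at 1 bp in Hand2, 128 bp in Olig2, 165 bp in Nkx2-1, 260 bp in Pax1, 264 bp in Cdx2, 284 bp in Pou5f1, 517 bp in Tbx5 and 708 bp in Myf6. In Nkx2-1, Pax1, Pou5f1 and Tbx5 this was an internal start, and no site lay within 1 kb of the outermost 5′ end. The distance of Hand2 rests on the reading of site starts as counted from 0. Read as counted from 1, the site would include the start of Hand2, and 29 genes, or 74.4% of the 39, would have a covered start, with 92.3% of CpG-rich coding genes as before.

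In the blood and immune group all 8 CpG-rich genes had a start inside a site. The widest promoter site of any lineage regulator was found in Gata3, a regulator of T helper and luminal epithelial cells, with 2674 bp at chr2:9877359-9880032. It covered an internal start, and a further site of 1204 bp at the 5′ end covered 2 more. Cebpa had 1 site of 2187 bp (chr7:35117877-35120063) over both of its starts, and Ikzf1, the lymphoid factor Ikaros, 1 site of 1780 bp (chr11:11684871-11686650) over all 5 of its starts. Tcf7, a T cell factor of the Wnt pathway, had 1 site of 1708 bp (chr11:52281962-52283669) and Tal1, a founder of blood and endothelium, 1 of 1310 bp (chr4:115056396-115057705).

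Gata2, which maintains blood stem cells, had 4 promoter sites of 202 to 1458 bp, the widest at chr6:88203033-88204490. They were spread over the gene, and 3 of its 4 starts were covered. Tbx21, the T helper factor T-bet, had 1 site of 1239 bp over its only start (chr11:97114412-97115650). Pax5, the B cell factor, had 3 sites, of which the widest (1722 bp, chr4:44703159-44704880) covered 2 of 7 starts. The site nearest the outermost 5′ end of Pax5 was only 284 bp wide and lay 328 bp away from a start.

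The promoter sites of the heart group were narrower, with a median of 843 bp for the widest site of a gene. Gata6 stood at the upper end with 2394 bp (chr18:11052192-11054585), and Gata4, for the same family of cardiac and endodermal factors, reached 1412 bp at an internal start (chr14:63244697-63246108). A further Gata4 site of 697 bp (chr14:63271146-63271842) covered the start at the 5′ end of the gene. Gata5 had 884 bp (chr2:180333987-180334870) and Isl1, which marks heart progenitors and motor neurons, 843 bp (chr13:116309417-116310259). In Nkx2-5, the cardiac homeobox gene, the widest of 3 sites spanned 549 bp (chr17:26841692-26842240), in Hand2 551 bp (chr8:57320984-57321534) and in Tbx5, the T-box factor of heart and forelimb, 428 bp (chr5:119835180-119835607).

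In the muscle group, Pax3 and Pax7, which act in muscle precursors and in the neural crest, had sites of 1351 bp (chr1:78196068-78197418) and 905 bp (chr4:139832530-139833434) over a start. Myf6, a late muscle factor, had 1 site of 929 bp in an intron (chr10:107493101-107494029) and none on its start. Together with Myod1, Myf5 and Myog, all 4 factors of the MyoD family thus lacked a site on a start.

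All regulators of nervous system and pigment cells had a promoter site, and 8 of 9 a covered start. The widest were found in the bHLH genes of neuronal commitment Atoh1 with 2286 bp (chr6:64727839-64730124) and Neurog2 with 1871 bp (chr3:127633022-127634892), and in Lhx2, a homeobox gene of forebrain and eye, with 1702 bp (chr2:38350365-38352066). Olig1, an oligodendrocyte factor, had 1566 bp (chr16:91269647-91271212), Pax6, the eye and forebrain factor, 1555 bp (chr2:105675322-105676876), Neurog1 1412 bp (chr13:56251328-56252739) and Mitf, the melanocyte factor, 1396 bp (chr6:97806247-97807642). Pax6 had 24 annotated starts, of which 5 were covered, all by this internal site.

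Olig2, which acts in motor neurons and oligodendrocytes, had 2 sites of 541 and 811 bp (the wider at chr16:91226181-91226991), and both lay downstream of the start. Neurod1, a factor of neurons and endocrine pancreas, stood apart with a site of 183 bp (chr2:79456698-79456880). The same narrow site also held a start of the coding gene Cerkl.

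Among the gut, lung and pancreas genes, Ptf1a, a factor of exocrine pancreas and cerebellum, was the only one of the 6 with a covered start (1198 bp, chr2:19444855-19446052). Nkx2-1, the thyroid and lung factor, had a wide site of 1835 bp (chr12:56533107-56534941) that lay 165 bp from a start, and Cdx2, the intestinal and trophoblast factor, a site of 494 bp inside the gene (chr5:147306513-147307006). In the kidney and skeleton group, Pax2 had a site of 2197 bp (chr19:44755378-44757574) and Pax9, a factor of teeth and vertebrae, one of 2094 bp (chr12:56695316-56697409), each over 2 starts. Pax8, of kidney and thyroid, had 946 bp at 1 of 7 starts (chr2:24445461-24446406). This start belongs to a transcript not annotated as protein-coding, and Pax8 had no promoter site when only protein-coding transcripts or RefSeq starts were used. Pax1, a factor of the vertebral column, had a single site of 243 bp (chr2:147365254-147365496) beside a start.

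In the early embryo group Eomes, a T-box factor of trophoblast and mesoderm, had 3 sites, and the widest, with 1123 bp (chr9:118478442-118479564), covered a start. Pou5f1, which encodes the pluripotency factor Oct4, had sites of 620 bp (chr17:35507902-35508521) and 438 bp within the gene. They counted as promoter sites through starts of internal transcripts, since Pou5f1 had none when only the outermost 5′ end was used.

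**Figure D4:**
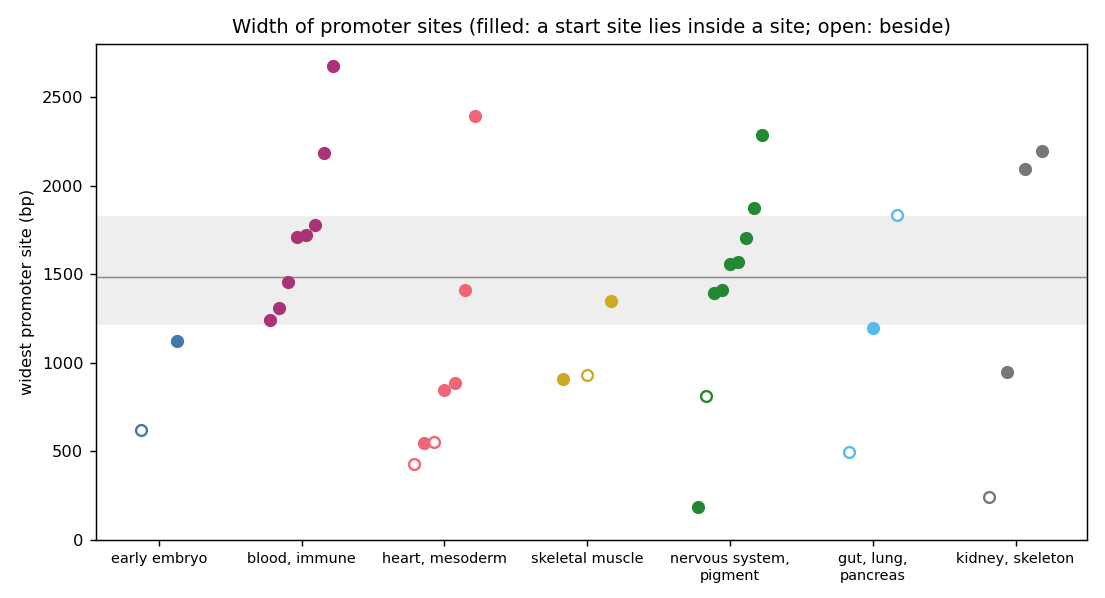
Circles give the width in bp of the widest promoter site of each of the 36 genes with one, by lineage; they are filled where a start site lies inside a site and open where the site lies beside it. The grey band and line show the quartiles (1221 and 1820 bp) and the median (1485 bp) of CpG-rich coding genes. Blood and nervous system genes sit within or above the band, apart from Neurod1 and Olig2, and most heart genes sit below it.

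The median width of the widest promoter site was 1404 bp for the 34 CpG-rich lineage regulators (quartiles 889 and 1766 bp) and 1485 bp for CpG-rich coding genes (quartiles 1221 and 1820 bp). The lineage regulators reached further towards narrow sites. The widest site was below 600 bp in 6 of the 34 (17.6%), which were Neurod1, Pax1, Tbx5, Cdx2, Nkx2-5 and Hand2, compared to 2.67% of CpG-rich coding genes with a site. Neighbouring sites were counted apart here. In Nkx2-5, sites less than 100 bp apart would join to chr17:26841433-26842240 and pass 600 bp. Merging all sites at most 100 bp apart gave the lineage regulators a median of 1409.5 bp. At the other end, 6 of the 34 (17.6%) had a site of 2000 bp or more (Gata3, Gata6, Atoh1, Pax2, Cebpa and Pax9), a share near the 16.2% of CpG-rich coding genes with a site.

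For 6 lineage regulators a promoter site also held a start of another gene, so that the site cannot be assigned to the regulator alone. This is 16.7% of the 36 with a site, compared to 29.4% of the coding genes with a site. The other gene was protein-coding for Gata3 (9230102O04Rik, at its narrower site) and Neurod1 (Cerkl). It was a noncoding transcript for Ikzf1 (Gm11999), Cebpa (Gm45091, antisense), Gata6 (1010001N08Rik) and Hand2 (Hand2os1). Without such sites 32 of the 47 genes (68.1%) and 56.0% of all coding genes had a promoter site, and Ikzf1, Cebpa, Gata6 and Neurod1 had none.

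The start regions of the lineage regulators contained more CpG-rich sequence than the median CpG-rich coding gene, and a smaller part of it lay in sites. Those of mesenchymal regulators also contained more (median 2759 bp, over the 31 of 34 CpG-rich ones with such sequence near the 5′ end). Within 5 kb of the outermost 5′ end, CpG-rich stretches of the 39 CpG-rich lineage regulators covered a median of 2334 bp (quartiles 1778 and 3337 bp), compared to 1351 bp (quartiles 1069 and 1763 bp) for 13028 CpG-rich coding genes with such a stretch. Of these bases a median of 46.0% lay in accessible sites (quartiles 24.5 and 70.9%). For CpG-rich coding genes the median was 93.8% (quartiles 81.2 and 100.0%). The 2803 coding genes with as much CpG-rich sequence as the middle part of the lineage regulators, between their quartiles, had a median of 84.8%. Counted around every start site, the medians were 46.1% for the lineage regulators and 92.6% for coding genes, and within 2 kb of the 5′ end 51.3 and 94.8%. These 2 settings were chosen after the values had been seen.

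The share in sites was highest in Mitf with 100% of 944 bp, Ikzf1 with 93.1% of 1834 bp and Gata3 with 92.6% of 639 bp. Genes with CpG-rich sequence of like length differed in this share. Neurog2 had 73.5% of 3304 bp and Pax9 70.9% of 3104 bp in sites, whereas Pax6 had 20.7% of 3653 bp. Pax3 had 68.8% of 1767 bp, whereas Myod1 had 18.3% of 1713 bp. The 4 genes with the longest CpG-rich sequence had intermediate shares. In Gata2 2673 of 6098 bp lay in sites (43.8%), in Pax2 2388 of 5465 bp (43.7%), in Olig2 1782 of 4830 bp (36.9%) and in Gata6 2392 of 4389 bp (54.5%). Low shares were also found in Tbx5 with 18.8%, Cdx2 with 15.0% and Pax1 with 8.94%, although each had a promoter site. None of the CpG-rich bases lay in sites for Pdx1 (1714 bp), Neurog3 (1853 bp) and Cdx1 (1496 bp), which had no promoter site. The same held for Pax8 (1077 bp) and Gata4 (1751 bp). The promoter site of Pax8 lay at an internal start beyond this region, and the 697 bp site at the 5′ end of Gata4 missed the CpG-rich bases. By lineage the median ran from 7.5% for gut, lung and pancreas over 26.3% for kidney and skeleton, 33.7% for muscle, 42.4% for the heart and 62.0% for blood to 73.5% for the nervous system, and Eomes, as the only CpG-rich gene of the early embryo, had 70.9%.

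**Figure D5:**
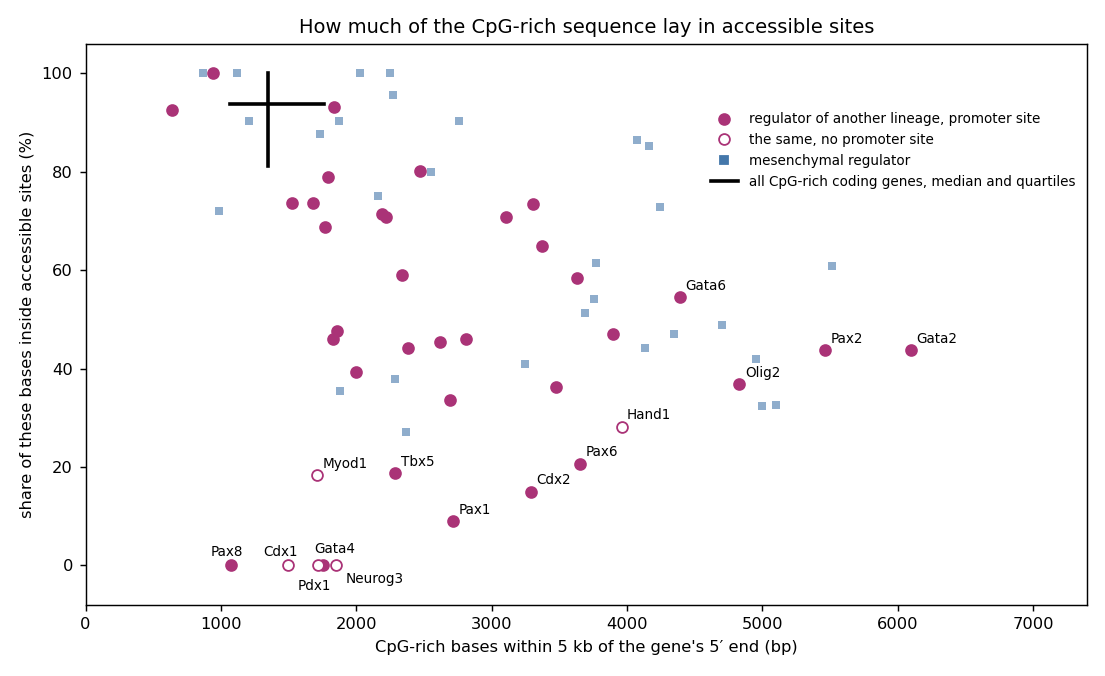
Each circle is 1 of the 39 CpG-rich lineage regulators, placed by the CpG-rich bases within 5 kb of its 5′ end (bp) and by the percentage of them inside accessible sites; open circles have no promoter site. Blue squares are mesenchymal regulators and the black cross gives the median and quartiles of all CpG-rich coding genes. Most circles lie to the right of and below the cross, with 5 at 0%.

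Regulators of the mesenchyme, the tissue from which fibroblasts descend, served as a comparison of the same kind of protein. A promoter site was present in 35 of 37 (94.6%, beside 70.8% of coding genes), and in 32 of the 34 CpG-rich ones (94.1%), close to the 95.3% of CpG-rich coding genes. The exceptions were Tcf21 and Barx1, with the nearest site at 3202 and 2075 bp. All 32 had a covered start, their widest site had a median of 2040 bp, and more of their CpG-rich sequence lay in sites. The lineage regulators thus had a median of 2334 bp of CpG-rich sequence with 46.0% of it in sites. The mesenchymal regulators had 2759 bp with 72.0%, both over the 31 of 34 CpG-rich genes with such sequence in the window. The shares overlapped from gene to gene, since the lowest mesenchymal value was 27.1%. All 10 housekeeping genes examined had a promoter site, as did 9 of 10 genes of fibroblast matrix and surface proteins, of which Lum had its nearest site at 1185 bp. Of the marker genes of the labelled cell type, Lum was thus the only one of these 10 without a promoter site.

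Genes listed as differentiation genes of the same lineages had a promoter site less often than the regulators. Most of them are products of mature cells. The list also holds transcription factors such as Klf1, Esrrb and Tfcp2l1, and its early embryo genes are not products of mature cells. Of the 70 genes 38 (54.3%) had a promoter site and 31.4% were CpG-rich, beside 70.8 and 61.6% of all coding genes. Within the CpG classes this order was not seen. All 22 CpG-rich differentiation genes had a promoter site, compared to 34 of 39 regulators and 95.3% of CpG-rich coding genes. A start lay inside a site for 19 of the 22 (86.4%), beside 71.8% of CpG-rich regulators and 92.3% of CpG-rich coding genes. Of the 28 intermediate genes 8 (28.6%) had a promoter site, compared to 2 of 8 regulators and 47.6% of intermediate coding genes. Of the 20 CpG-poor genes 8 had a site, beside the 17.7% of CpG-poor coding genes. By lineage the count was 7 of 8 for the early embryo, 8 of 16 for blood, 6 of 9 for the heart, 3 of 8 for muscle, 8 of 11 for nervous system and pigment cells, 2 of 11 for gut, lung and pancreas, and 4 of 7 for kidney and skeleton. The CpG classes differed along with these counts. In gut, lung and pancreas 6 of 6 regulators but 0 of 11 differentiation genes were CpG-rich. In blood 8 of 10 regulators and 3 of 16 differentiation genes were CpG-rich, and all of these had a promoter site.

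With promoter sites included, a total of 763 different sites lay within 100 kb of the start sites of the lineage regulators. The numbers per gene that follow also include promoter sites. A gene had a median of 17 sites (3 to 34), compared to 19 (quartiles 11 and 26) for coding genes. Of the genes, 28 were below the coding median, 18 above and 1 at it. With only the outermost 5′ end of each gene, the median was 17 for the lineage regulators and 17 for coding genes. The highest numbers were found for Tbx21 and Gata4 with 34 each and Pax8 with 32. The lowest was 3 for Pax1, followed by Zfp42, Ikzf1 and Tbx5 with 4 each. All 4 sites near Ikzf1 lay within the gene, including the wide one over its starts. Zfp42 had 0 sites in the gene, and its nearest was the one at 24889 bp.

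The absence of a promoter site did not go with few sites in the neighbourhood. The 11 lineage regulators without a promoter site had a median of 17 sites within 100 kb, those with one a median of 16. Over all coding genes these medians were 6 and 22, without matching for CpG class, in which the genes without a site differed as described above. Cdx1 with 31, Myf5 with 30 and Nanog with 28 sites were among the genes with most sites, while Zfp42 with 4, and Myod1 and Pdx1 with 9 each, had few. Gata1 had 17, on the X chromosome with a median of 7 per coding gene. The numbers of Myf5 and Myf6 (30 each) stand beside a median of 23 on chromosome 10, and the pair shared 29 of these sites because their starts lie 8603 bp apart. Pdx1 and Cdx2 shared 8 sites, Olig1 and Olig2 5, and Nkx2-1 and Pax9 5, so these genes are not independent. Several genes had many sites in the gene body, with 20 in Mitf, 13 in Gata4 and 8 each in Pax3 and Pax5.

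AP-1, the dimer of Fos and Jun proteins, is a common factor at distal sites of fibroblasts. Its sequence TGANTCA was searched on both strands in the middle 200 bp of the sites outside promoters. It was present in 111 of 573 distal sites within 100 kb of the lineage regulators (19.4%) and in 20.9% of all 127255 distal sites. By lineage the share ran from 11.9% of 59 sites for gut, lung and pancreas to 28.6% of 56 sites for the early embryo. The distal sites near lineage regulators thus held this sequence about as often as distal sites elsewhere, and a match does not show that a factor was bound.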

How the data were processed

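According to the methods and the submitters' processing notes, the authors removed adapters (Trim Galore), mapped the reads to mm10 (BWA), filtered them (SAMtools), joined replicates (Picard) and called narrow peaks (MACS2). DESeq2 and deepTools were used for values not analysed here. The peak threshold, the joining of sites over libraries, any shift for the Tn5 cut and the removal of blacklisted regions are not given in the sources used here, and each can move the number, width and edges of sites.

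The deposited list gives chromosome, start and end only. Starts were read as counted from 0, since neighbouring sites were at least 1 bp apart, and are printed counted from 1. The 242 sites on other sequences were left out. Start sites came from GENCODE vM21 on GRCm38.p6, of the same build as mm10. The authors named release M25, so a few starts may differ. A promoter site overlapped 1 kb either side of any start by at least 1 bp. CpG content was computed from the genome without masking repeats.

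The members and the comparison lists were chosen with earlier results of these data known. All 47 genes were to be accounted for, each with its widest promoter site or, if CpG-rich and without one, its nearest site. The remaining genes were to be given by range, and the 3 genes with most and with fewest sites were to be named. Finding sites and distances was tested on simulated data, with 0 wrong answers for 200 genes. Python 3.11.15, NumPy 2.4.6, SciPy 1.17.1 and Matplotlib 3.10.9 were used.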

Additional observations from a re-analysis of the deposited data

How the results depend on the processing

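The number of lineage regulators with a promoter site (36) stayed between 28 and 39 under all 12 alternatives. The number of CpG-rich ones without a site (5) was 3 with a window of 3 kb, 3 with a CpG ratio of at least 0.75, 8 with islands of 200 bp, 11 when sites narrower than the median were left out, and, in settings added after the data had been seen, 11 when the start had to lie inside a site, 10 when in addition site starts were read as counted from 1, and 9 without sites that held a start of another gene. The matching shares of CpG-rich coding genes without a site were 3.50, 3.53, 10.7, 7.51, 7.70, 7.69 and 27.4%. In the last setting the share of CpG-rich coding genes without a site exceeded that of the lineage regulators (23.1%). The median number of sites near a gene was 9.0 within 50 kb, 35.0 within 200 kb and 7.0 with only wide sites, beside 10.0, 36.0 and 10.0 for coding genes. With only the outermost 5′ end of each gene it was 17.0 for the lineage regulators and 17.0 for coding genes. Merging sites at most 100 bp apart, using 5′ ends, RefSeq starts or protein-coding transcripts, and a window of 500 bp moved none of the counts by more than 1.5 times.

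No paired analysis was possible because values per library were not analysed here. Depth, replicate error and the effect of dTAG-13 on these genes were not analysed here, and signal below the threshold of the peak caller is not seen at genes without a site. A weak site found in 1 group of libraries counts like one found in all.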
